A study of Mus musculus with 12 samples.

Results

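The numbered Zfp genes are mouse zinc finger genes whose name consists of Zfp and a number. They were taken from the gene names of an Agilent array by name alone, except Zfp36, and kept where a probe exceeded background well on each of the 3 arrays of non-activated wild-type cells. The brightest such probe stood for each gene. This left 265 genes, called members here, of 329 numbered Zfp names on the array and of 18560 genes tested in all. RNA came from splenic regulatory T cells (Treg) of female C57BL/6 mice. The 12 arrays fall into 4 groups of 3: CD83 WT cells not activated (WT 0 h), WT cells after 3 h with anti-CD3 and anti-CD28 antibodies (WT 3 h), and CD83cKO cells, a conditional knockout of Cd83, in the same states (KO 0 h and KO 3 h). The age was 9 weeks for WT, 10 weeks for 4 KO arrays and 21 weeks for the other KO arrays, the third replicate of each state. The labels name no Cre driver, and the series counts 6 mice for the 12 arrays without tying an array to a mouse. Some arrays must therefore share an animal, and the p-values, which treat arrays as independent, do not account for this.

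Most Zfp genes encode proteins of the C2H2 type, in which each finger folds around a zinc ion and reads a few bases of DNA, and a row of fingers reads a longer site. Many also carry a KRAB domain, which recruits the corepressor Trim28 and through it the histone methyltransferase Setdb1 and heterochromatin proteins, and which is best known for silencing retrotransposons and imprinted loci. They lie in clusters that grew by gene duplication. Treg hold other immune cells in check and depend on the transcription factor Foxp3, and CD83 is a surface protein of the immunoglobulin superfamily. The series asks what CD83 contributes to these cells at rest and after stimulation of the T cell receptor.

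Neighbouring fingers are joined by a short linker that is nearly the same in most C2H2 proteins, and 5 of the 265 members' probes (1.89%) contained a match to the linker consensus, searched as the codons of that linker with the last base of each codon free. Among all 55681 probes of the array 37 did (0.0664%), and on the opposite strand the motif was found in 0 of the members' probes and in 4 of all probes. These 5 probes are shown because they display a hallmark of the family, a stretch that recurs within and between such genes. The capitals mark the motif.
Zfp14: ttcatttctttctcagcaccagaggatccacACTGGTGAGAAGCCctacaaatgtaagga
Zfp442: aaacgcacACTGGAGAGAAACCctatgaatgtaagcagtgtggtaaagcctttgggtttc
Zfp72: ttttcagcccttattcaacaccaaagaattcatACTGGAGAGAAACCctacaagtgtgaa
Zfp931: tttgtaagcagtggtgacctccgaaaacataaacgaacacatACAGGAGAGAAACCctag
Zfp936: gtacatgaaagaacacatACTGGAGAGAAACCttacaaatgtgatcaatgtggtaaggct
On the mm9 build of the array design these probes lie on chromosome 7 from 30823139 to 30823198 (Zfp14), chromosome 2 from 150234210 to 150234269 (Zfp442), chromosome 13 from 74509332 to 74509391 (Zfp72), chromosome 2 from 177802400 to 177802459 (Zfp931) and chromosome 7 from 50445732 to 50445791 (Zfp936), the first 4 on the minus strand and Zfp936 on the plus strand. Whether these probes also bind transcripts of other zinc finger genes was not tested. Of the 5, Zfp931 was called in the comparisons below, in WT activation, where it fell by 0.98 (log2; SE 0.271, limma adjusted p = 0.0218).

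Cd83 itself did not overlap between genotypes and was lower in KO, at 0.23 to 0.75 against 2.17 to 2.39 (normalized log2 signal) at 0 h and at 1.06 to 1.92 against 3.65 to 4.21 at 3 h. The KO minus WT difference was -1.88 ± 0.265 (SE) and -2.50 ± 0.265 (limma adjusted p = 0.0089 and 0.0023). All T cell markers of the list (10 of 10) were measured, but the Foxp3 probe used was well above background on 0 of 6 WT and on 6 of 6 KO arrays. The 2 arrays from 21-week mice stood apart. Relative to the WT mean at 0 h, plasma cell markers (5 genes) averaged 7.28 and 7.66 log2 units higher on these arrays, neutrophil markers (3 genes) 7.07 and 5.69 higher, T cell markers -1.67 and -2.38 and Treg markers -2.73 and -2.33. On the 10-week KO arrays these ran from -0.20 to 2.57 for plasma cells, -1.04 to 1.12 for neutrophils, -0.40 to -0.21 for T cells and -0.11 to 0.32 for Treg. The Treg mean includes the Foxp3 probe, which was at -9.42 to -8.63 (normalized log2 signal) at WT 0 h. It was at -2.86 and -3.16 on the 21-week arrays and at -6.27 to -4.09 on the 10-week KO arrays, and so raised the Treg mean on every KO array. All 6 KO arrays lay on 1 slide, WT 0 h on another and WT 3 h on one more, so slide cannot be told apart from genotype, nor from activation in WT, while activation in KO was measured within 1 slide. In these bulk samples fewer cells of a type and less RNA per cell cannot be told apart.

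The rule used the signal at WT 0 h, so that level is no result. Just inside it were Zfp560 (normalized log2 signal of -6.66, -7.05 and -6.78 on the WT 0 h arrays) and Zfp473 (-6.55, -6.39 and -6.83), and just outside were Zfp13 (-8.22, -5.78 and -6.57) and Zfp839 (-7.87, -6.18 and -6.84), each well above background on 2 of 3 arrays. Of the other names, 5 genes passed on 2 arrays, 9 on 1 and 50 on 0. Because members had to be measurable at WT 0 h, the set could lose signal after it more easily than gain it. On the other groups the probe stayed well above background on all 3 arrays for 256 members at KO 0 h, 258 at WT 3 h and 238 at KO 3 h, and 6 members were above it on 0 arrays at KO 3 h. Among the 9 numbered Zfp genes that were tested but are not members are Zfp105, above background on 3 KO 0 h arrays and on 0 WT arrays of either state, and Zfp184, above it on 3 WT 3 h and 0 WT 0 h arrays.

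Activation changed zinc finger genes in both directions. In WT, 25 members rose and 47 fell between 0 h and 3 h, with limma adjusted p under 0.05 over all genes. That is 27.2% of the members, beside 29.9% of all genes tested and 30.6% of the 17043 genes that pass the same WT 0 h rule. In KO, on arrays the rule did not use, 13 rose and 23 fell, or 13.6% beside 17.2% of all genes and 17.3% of those under the same rule. By direction, 9.43% of members rose and 17.7% fell in WT, beside 13.3% and 16.6% of all genes, and in KO 4.91% rose and 8.68% fell beside 7.38% and 9.80%. These shares of called members were close to or below the background.

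The differences of members were mostly small. In WT, 12.8% of members differed by more than 1 log2 unit in either direction, against 24.6% of genes under the same rule, and in KO 8.30% against 18.0%. The median difference was -0.08 for members and -0.14 for all genes in WT and 0.00 and -0.04 in KO. Without the 21-week arrays, 63 members rose and 81 fell in WT (24.1% and 31.6% of all genes, 55.8% in all) and 58 rose and 72 fell in KO (20.2% and 25.9%, 46.2% in all). With all 12 arrays and an age of 21 weeks as a term, 57 rose and 47 fell in KO (38.5% of all genes). Fitted on the 6 KO arrays of 1 slide alone, 0 members were called (0.56% of all genes), and on the 4 of these from 10-week mice 17 rose and 21 fell (21.1% of all genes). Leaving out KO 0 h replicate 2 left 14 calls in KO (9.73% of all genes), and leaving out KO 3 h replicate 3 gave 89 (37.2%). The split also moved with the background correction and the scaling. With normexp background correction 21 rose and 15 fell in KO (16.3% of all genes called), and with no shift between arrays 1 rose and 16 fell (13.3%). In that last setting the median of all genes was -0.34.

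**Figure D1:**
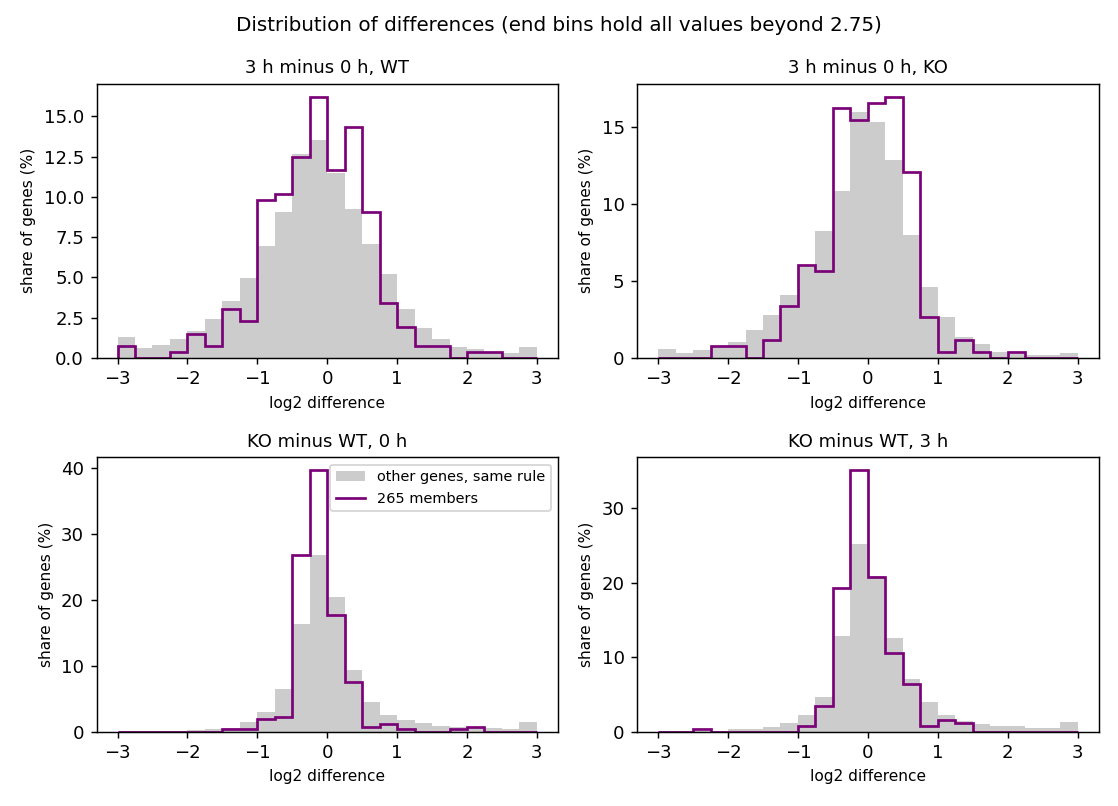
Share of genes (vertical axis, percent) by log2 difference (horizontal axis) for the 265 members (line) and the other genes that pass the same WT 0 h rule (grey), in 4 comparisons. The members' distribution is narrower: 12.8%, 8.30%, 2.26% and 3.02% of members differed by more than 1 log2 unit in WT activation, KO activation, KO minus WT at 0 h and KO minus WT at 3 h, against 24.6%, 18.0%, 10.5% and 10.5% of genes under the rule.

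The members called in KO were for the most part called in WT too. In both activation comparisons 11 rose and 20 fell, and 0 members were called in opposite directions. These 31 were 43.1% of the members called in WT and 86.1% of those called in KO; for genes under the same rule the shares were 49.6% and 87.8%. The sign was the same for 230 of 265 members (86.8%, and 83.4% of the genes under the rule). The WT and KO comparisons share no array, but each gene has the same SE in both, from 1 fit of all 12 arrays. The calls in WT and KO are therefore not independent. Macrophage markers fell on activation in both genotypes (10 of 12 called in WT and 9 of 12 in KO), their mean relative to WT 0 h lying from -2.42 to -1.88 at WT 3 h, from 2.04 to 2.59 at KO 0 h and from -0.45 to 0.73 at KO 3 h, and their part in the changes of members was not tested.

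**Figure D2:**
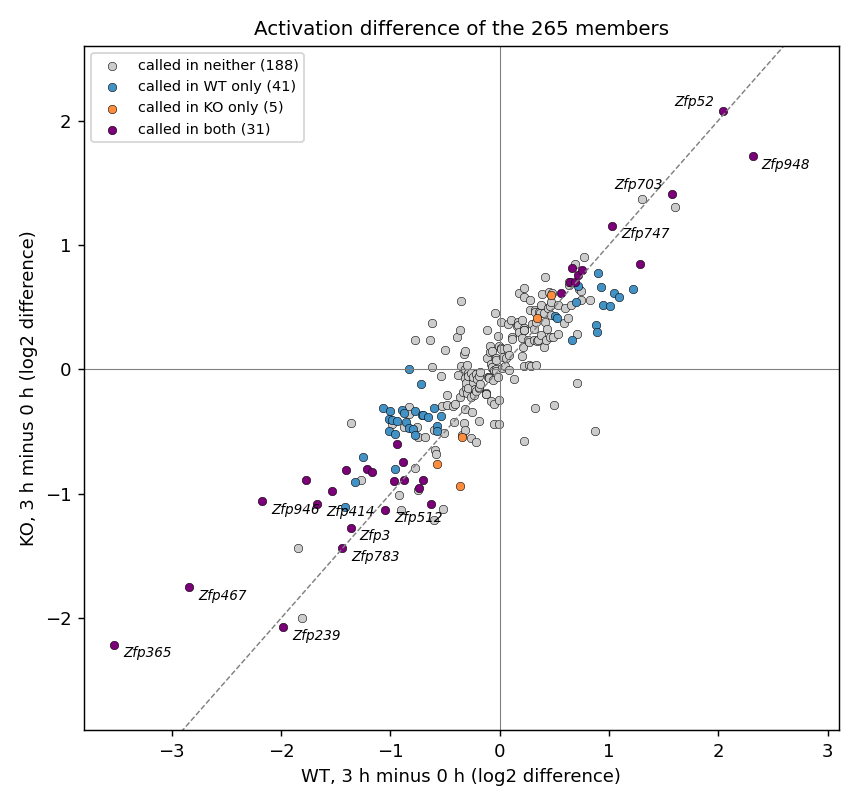
Log2 difference between 3 h and 0 h of each member in WT (horizontal) and KO (vertical), with the dashed line marking equal values and colours marking calls at an adjusted p under 0.05. The 31 members called in both lie at the upper right (11) and the lower left (20), and none lies elsewhere.

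Zfp52 and Zfp948, adjacent members of a cluster on chromosome 17, had the largest rises. In WT, Zfp52 stood at -1.21, -1.35 and -1.47 at 0 h and at 0.55, 0.73 and 0.82 at 3 h (normalized log2 signal). KO arrays gave -2.15, -1.57 and -2.24 at 0 h and -0.02, 0.47 and -0.19 at 3 h. Every 3 h array was above every 0 h array in both genotypes, the 21-week arrays included, and the difference was 2.05 ± 0.224 (SE) in WT and 2.08 ± 0.224 in KO (limma adjusted p = 0.000335 and 0.000637). Zfp948 went from -5.23, -5.09 and -5.49 to -3.01, -2.89 and -2.96 in WT. In KO it went from -5.26, -5.10 and -5.67 to -4.21, -2.97 and -3.70, where replicate 1 at 3 h was the lowest. Its difference was 2.31 ± 0.285 in WT and 1.72 ± 0.285 in KO (adjusted p = 0.000518 and 0.0043). Their probes lie 26060 bases apart, on the plus strand from 21699488 to 21699547 and from 21725548 to 21725607 of chromosome 17 (mm9), and share no run longer than 6 bases.

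Zfp703, a transcriptional corepressor studied in luminal breast cancer, rose as well. Its WT arrays were at 0.87, 1.02 and 0.84 before and at 2.44, 2.54 and 2.46 after activation, and its KO arrays at 1.31, 1.41 and 1.22 before and 2.75, 3.09 and 2.34 after. The 21-week array was the lowest of the KO 3 h arrays and still above every 0 h array. The rise was 1.57 ± 0.184 in WT and 1.41 ± 0.184 in KO (adjusted p = 0.000426 and 0.0016). Zfp189, a Krüppel-type factor, rose by 1.28 ± 0.136 in WT and 0.85 ± 0.136 in KO (adjusted p = 0.000294 and 0.0037), from -4.09, -3.98 and -3.95 to -2.77, -2.63 and -2.78 in WT and from -3.63, -3.79 and -3.56 to -2.77, -2.69 and -2.97 in KO. Its arrays were tight within each group and did not overlap between states. Zfp747 rose by 1.03 ± 0.311 in WT and 1.15 ± 0.311 in KO (adjusted p = 0.0314 and 0.031), with KO arrays at 0.16, 0.06 and -0.55 at 0 h and 1.45, 1.43 and 0.25 at 3 h. On both 21-week arrays it was the lowest of its group. This call was lost on leaving out any of 6 arrays in WT and 8 in KO (adjusted p up to 0.0882 and 0.108).

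The other members that rose in both genotypes did so by less. Zfp622, a factor of the late maturation of the large ribosomal subunit, rose by 0.72 and 0.76 in WT and KO, Zfp655 by 0.75 and 0.80, Zfp58 by 0.66 and 0.82, Zfp954 by 0.69 and 0.70, Zfp959 by 0.64 and 0.70, and Zfp110, a protein that binds a neurotrophin receptor, by 0.56 and 0.61. Their adjusted p ran from 0.0075 to 0.0485 in WT and from 0.0089 to 0.044 in KO.

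**Figure D3:**
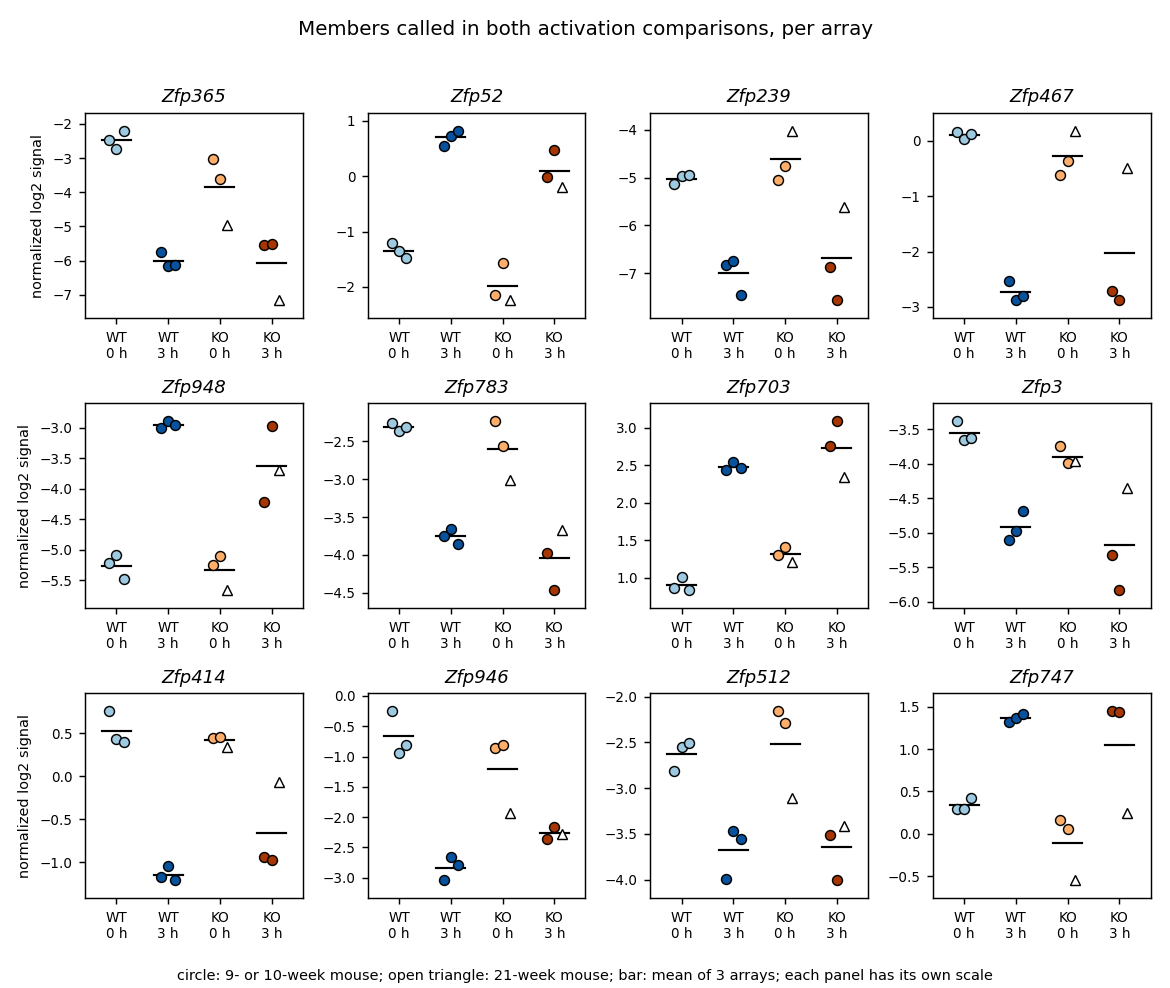
Normalized log2 signal, by group, of the top 12 members among those called in both activation comparisons. They were ranked by the smaller of their WT and KO absolute differences. Each point is 1 array, bars are means of 3 arrays, open triangles are the arrays from 21-week mice, and each panel has its own scale. Zfp52, Zfp948, Zfp703 and Zfp747 stand higher at 3 h and the other 8 lower, with no overlap between 0 h and 3 h within a genotype except for Zfp467 in KO.

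Zfp365, known from the protection of chromosomes under replication stress, had the largest fall. WT arrays were at -2.47, -2.74 and -2.21 at 0 h and at -5.75, -6.14 and -6.12 at 3 h. In KO the values were -3.02, -3.61 and -4.95 at 0 h and -5.53, -5.52 and -7.16 at 3 h, with the 21-week array lowest in each state and the last value not well above background. The fall was 3.53 log2 units in WT (-3.53 ± 0.527, adjusted p = 0.0012) and 2.21 in KO (-2.21 ± 0.527, adjusted p = 0.0189). Zfp467, a factor that favours fat over bone differentiation in stromal cells, stood at 0.15, 0.03 and 0.12 in WT and dropped to -2.54, -2.88 and -2.80. In KO it went from -0.62, -0.36 and 0.17 to -2.71, -2.87 and -0.49, so that the 21-week arrays were the highest of both KO groups and the KO states overlapped, the 21-week array at 3 h lying above replicate 1 at 0 h. The difference was -2.84 ± 0.525 in WT and -1.75 ± 0.525 in KO (adjusted p = 0.0035 and 0.046). The other 3 tested probes of Zfp467 fell too in WT, by 2.61, 1.63 and 1.01.

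Zfp239, a protein that binds DNA and RNA, fell by 1.98 in WT and 2.07 in KO (SE 0.447 in both, adjusted p = 0.0088 and 0.0124). Its arrays were at -5.14, -4.97 and -4.95 before and -6.83, -6.74 and -7.45 after activation in WT, and at -5.05, -4.76 and -4.03 before and -6.87, -7.56 and -5.62 after in KO. At 3 h it was well above background on 2 WT arrays and 1 KO array. Zfp783 fell alike in both, by 1.44 (SE 0.236, adjusted p = 0.002 and 0.004): WT went from -2.26, -2.37 and -2.31 to -3.75, -3.66 and -3.86, and KO from -2.24, -2.56 and -3.01 to -3.98, -4.47 and -3.67. Zfp946 fell by 2.17 in WT and 1.06 in KO (SE 0.299, adjusted p = 0.00085 and 0.0368). Its KO arrays were at -0.86, -0.81 and -1.93 at 0 h and at -2.36, -2.16 and -2.28 at 3 h, where the 21-week array at 0 h was close to the 3 h values. Zfp414 fell by 1.67 and 1.08 (SE 0.233, adjusted p = 0.000891 and 0.0124), Zfp3 by 1.36 and 1.27 (SE 0.315, 0.01 and 0.0223) and Zfp512 by 1.05 and 1.13 (SE 0.275, 0.0175 and 0.021).

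Among the remaining falls in both genotypes were Zfp217, an oncogene product that brings the Lsd1 and CoREST repressor complex to DNA, and Zfp652, which binds the corepressor Cbfa2t3. Zfp217 went from 0.11, 0.17 and 0.06 to -1.07, -1.16 and -1.09 in WT and from -0.07, -0.03 and -0.29 to -0.88, -1.14 and -0.77 in KO (-1.22 and -0.80, SE 0.142, adjusted p = 0.000426 and 0.0056). Zfp652 fell by 1.40 and 0.80 (SE 0.240, adjusted p = 0.0025 and 0.045). Zfp78 fell by 1.77 and 0.89, Zfp870 by 1.54 and 0.98, Zfp583 by 0.63 and 1.08, Zfp770 by 0.88 and 0.89 and Zfp961 by 0.96 and 0.90. Zfp248, Zfp606, Zfp865, Zfp873 and Zfp938 made up the rest, with differences from -1.17 to -0.70 in WT and from -0.95 to -0.60 in KO. Zfp248 was well above background on 0 arrays at KO 3 h. For Zfp865, 2 other probes were not called and had the opposite sign (0.37 and 0.32 in WT, 0.26 and 0.42 in KO).

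In the WT comparison 41 further members were called and in the KO comparison 5. The WT set held rises of Zfp131, a BTB zinc finger protein (1.22 ± 0.239, adjusted p = 0.0046), Zfp619 (1.09 ± 0.297, 0.0202) and Zfp326, a subunit that links RNA polymerase II to splicing (1.05 ± 0.345, 0.0442). In KO these were at 0.65, 0.58 and 0.61 and were not called. The KO set was Zfp114 (-0.93 ± 0.247), Zfp41 (-0.76 ± 0.195), Zfp61 (-0.54 ± 0.150), Zfp949 (0.60 ± 0.170) and Zfp513 (0.41 ± 0.122), chosen after their values were seen, with adjusted p from 0.0261 to 0.043, and their WT differences were -0.36, -0.57, -0.34, 0.47 and 0.34. Among those not called in either, but past 1 log2 unit in both, were Zfp831, Zfp281, a factor known from pluripotent stem cells, Zfp382 and Zfp366, a nuclear factor of dendritic cells, also chosen after their values were seen. Zfp831 stood at -1.24, -1.15 and -1.08 at WT 0 h and -2.99, -2.94 and -2.95 at WT 3 h, while at KO 0 h it was at -1.14, -1.26 and -3.44 and at KO 3 h at -2.97, -3.22 and -5.64. Its 21-week arrays lay more than 2 log2 units under the others of their group, and the SE was 0.726 in both genotypes. Without them its fall was 1.81 in WT and 1.89 in KO (adjusted p = 4.68e-06 and 2.48e-05). Zfp281 was likewise at 1.60 in WT and 1.31 in KO (adjusted p = 0.0665 and 0.158), with KO arrays at 0.76, 0.49 and -0.91 at 0 h and 2.24, 2.11 and -0.09 at 3 h, and without the 21-week arrays it rose by 1.60 and 1.55 (adjusted p = 1.09e-05 and 7.5e-05). Zfp366 was at -1.85 in WT and -1.44 in KO (adjusted p = 0.0511 and 0.148).

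Of 39 calls of the members named by rule over the 4 comparisons, 22 held whichever of the 12 arrays was left out and 17 were lost for at least 1 array, with 26 to 38 held for any single array. In KO activation the call of Zfp467 was lost for 11 arrays (adjusted p up to 0.153), as was that of Zfp622 (up to 0.143). Zfp946 lost it for 9 arrays (up to 0.125), Zfp58 for 8 (up to 0.113), Zfp3 for 4 (up to 0.0714), Zfp512 for 3 (up to 0.0772), Zfp365 for 2 (up to 0.0657) and Zfp655 for 1 (0.0503). In WT activation Zfp326 lost it for 8 arrays (up to 0.116), and Zfp512 and Zfp619 for 3 each (up to 0.0709 and 0.0806). The rises of Zfp52, Zfp948 and Zfp703 and the falls of Zfp239, Zfp783 and Zfp414 held for every array left out. Of the 72 members called in WT, 25 had another tested probe, and 35 of these 39 probes had the sign of the probe used. In KO 13 did, with 16 of 18 probes of the same sign.

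Testing whether activation acted differently in KO and WT called 0 members in limma and 0 of all 18560 genes. At an unadjusted limma p under 0.05 there were 8 members over 12 arrays and 26 without the 21-week arrays. The share of all genes at this threshold was not counted, so these numbers say nothing particular to the members. The largest values were 1.32 ± 0.745 for Zfp365, 1.11 ± 0.422 for Zfp946 and 1.09 ± 0.743 for Zfp467, whose KO differences were nearer 0, and -0.82 ± 0.511 for Zfp111 and -0.80 ± 0.473 for Zfp90, each with an adjusted p of 1. Zfp459 also ranked among them, but its KO 3 h level is only a bound, so no value is given. A member called in WT and not in KO is therefore not shown to respond differently.

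Members were concentrated on a few chromosomes, 69 on chromosome 7, 33 on chromosome 17, 23 on chromosome 13 and 20 on chromosome 8. With members joined where their probes lay within 500000 bases (mm9), 141 of the 265 fell into 22 clusters of at least 3. Calls in both directions occurred within single clusters. The largest, on chromosome 17 from 21165104 to 23693921, held 17 members, of which Zfp52 and Zfp948 rose and Zfp946 and, in WT, Zfp947 fell. The members on either side of the rising pair were not called: Zfp53 was at 0.37 in WT and 0.45 in KO, and Zfp760 at -0.31 and -0.15. Of the 22 clusters, 5 had 0 calls in both genotypes, while 29.9% of all genes were called in WT and 17.2% in KO. These 5 clusters held 27 members, 13 of them on chromosome 7 from 30566378 to 30946346, with a median of 0.18 in WT and 0.12 in KO, a cluster singled out after its values were seen. It includes Zfp568, a repressor of a placental Igf2 transcript. On chromosome 6 from 47817001 to 48377858, a cluster of 8 held Zfp783 and Zfp467, which fell in both genotypes, and 1 gene that rose in WT, Zfp212. Near Zfp414 on chromosome 17, from 32910629 to 33768635, 4 of 10 members fell in WT and 1, Zfp101, rose.

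**Figure D4:**
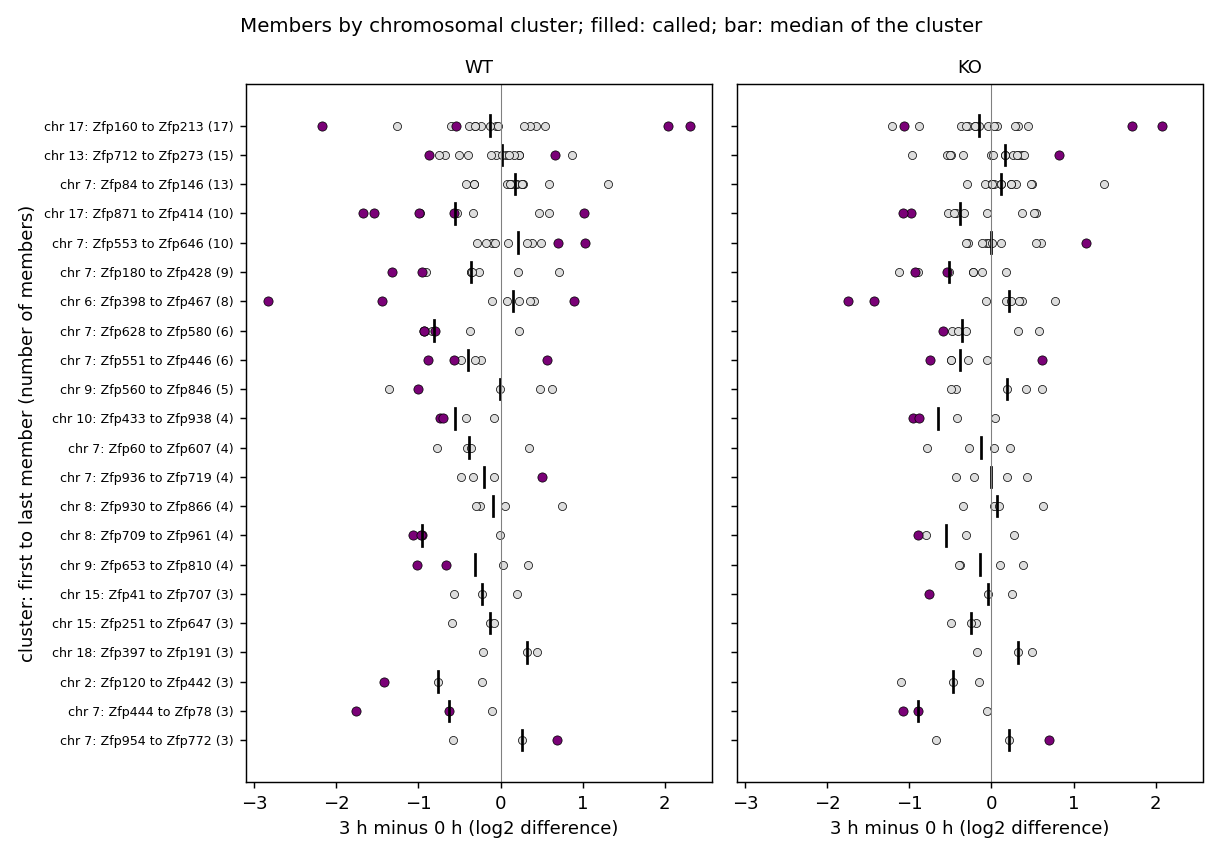
Log2 difference between 3 h and 0 h of the 141 members in 22 clusters of at least 3, in WT (left) and KO (right), 1 row per cluster named by its first and last member. Filled points were called at an adjusted p under 0.05 and bars are cluster medians. In the top row, the 17 members of chromosome 17, Zfp52 and Zfp948 stand at 2.05 and 2.31 in WT and Zfp946 at -2.17, around a cluster median of -0.13.

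The promoters of these 3 genes of the chromosome 17 cluster are shown because Zfp52 and Zfp948 rose together while Zfp946 fell. Each runs from 250 bases before to 50 after the start in RefSeq (GRCm38.p6, plus strand), and capitals mark every exact run of 12 or more bases that it shares with another of the 3.
Zfp52, chr17:21535289-21535588: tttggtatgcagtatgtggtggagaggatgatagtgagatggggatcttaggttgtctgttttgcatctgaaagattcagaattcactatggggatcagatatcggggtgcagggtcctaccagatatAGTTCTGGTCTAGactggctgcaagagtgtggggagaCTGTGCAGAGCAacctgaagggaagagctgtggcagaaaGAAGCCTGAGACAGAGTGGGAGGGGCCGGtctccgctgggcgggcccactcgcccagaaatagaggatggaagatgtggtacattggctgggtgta
Zfp948, chr17:21566728-21567027: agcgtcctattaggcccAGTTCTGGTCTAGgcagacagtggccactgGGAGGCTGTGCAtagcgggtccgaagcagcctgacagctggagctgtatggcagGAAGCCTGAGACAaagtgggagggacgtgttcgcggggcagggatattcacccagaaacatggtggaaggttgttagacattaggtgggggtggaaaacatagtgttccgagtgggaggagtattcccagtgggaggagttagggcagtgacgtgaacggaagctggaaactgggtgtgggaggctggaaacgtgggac
Zfp946, chr17:22423952-22424251: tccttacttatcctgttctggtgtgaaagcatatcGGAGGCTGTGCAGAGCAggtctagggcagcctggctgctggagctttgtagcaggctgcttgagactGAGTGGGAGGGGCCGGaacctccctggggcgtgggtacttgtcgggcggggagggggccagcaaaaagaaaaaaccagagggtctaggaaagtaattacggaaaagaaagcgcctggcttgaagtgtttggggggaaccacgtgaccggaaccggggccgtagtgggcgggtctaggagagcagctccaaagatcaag
Zfp52 and Zfp948 shared the runs AGTTCTGGTCTAG and GAAGCCTGAGACA, which begin at -122 and -46 relative to the start of Zfp52, and of the 27025 genes of the promoter table these 2 alone held each of them. Zfp52 also shared GAGTGGGAGGGGCCGG with Zfp946, again in these 2 genes alone, and CTGTGCAGAGCA, which 6 genes held. Zfp948 and Zfp946 shared GGAGGCTGTGCA, found in 9 genes. Runs were thus shared between genes that moved the same way and between genes that moved in opposite ways.

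Promoters were found for 221 members. The motif TGACG, the core of sites for CREB and ATF factors, was present on either strand in 80 of them (36.2%) and in 23.0% of 27025 genes, and the palindrome TGACGTCA, which contains TGACG, in 11 (4.98%) and 2.03%. TGANTCA, the site of AP-1 factors with its middle base left free, was in 4.98% of members' promoters and 8.97% of all. CACGTG, the E box of MYC, was in 9.95% and 8.09%, and a consensus NF-kB site in 1.81% and 1.38%. These are matches of letters in a window of 300 bases on both strands. The 27025 genes were not limited to those that pass the WT 0 h rule, as the members were. Shares for genes under that rule were not counted, so a trait of the family cannot be read from them. Of the 3 promoters shown, that of Zfp948 had a TGACG match and that of Zfp946 a CACGTG match.

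Between genotypes the zinc finger genes differed little. At 0 h, 1 member was higher in KO and 2 were lower by limma, 1.13% of the members beside 2.08% of all genes (1.82% higher and 0.259% lower), and this comparison shares the WT 0 h arrays with the rule. At 3 h 1 member was higher and 0 were lower, 0.377% beside 1.44% of all genes (1.26% higher and 0.189% lower). Unadjusted limma p-values under 0.05 numbered 21 at 0 h and 17 at 3 h among members, and were not counted over all genes. Differences past 1 log2 unit were found in 2.26% of members at 0 h and 3.02% at 3 h, against 10.5% of genes under the same rule in both. The median KO minus WT difference of members was -0.14 at 0 h (all genes -0.03) and -0.06 at 3 h (all genes 0.04). The members' median moved with the scaling and the background correction, from -0.32 to -0.08 at 0 h and from -0.47 to 0.04 at 3 h. That of all genes ran from -0.21 to 0.01 and from -0.36 to 0.15. The upper ends came with normexp background correction. Without the 21-week arrays the members' median was -0.01 and 0.03.

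Zfp932, a KRAB protein known to silence endogenous retroviruses, was lower in KO at 0 h, with lower values at 3 h as well. At 0 h its KO arrays were at -1.06, -1.16 and -1.69 and its WT arrays at -0.20, -0.24 and -0.28. At 3 h KO was at -1.76, -1.78 and -1.48 and WT at -1.07, -0.74 and -1.02. The groups did not overlap in either state. The difference was -1.06 ± 0.189 at 0 h (adjusted p = 0.0217) and -0.73 ± 0.189 at 3 h, not called (adjusted p = 0.127). Without the 21-week arrays it was -0.87 and -0.83, called in both states (adjusted p = 0.0082 and 0.0145). With the 75th percentile over all probes Zfp932 was the 1 member called at 3 h. Zfp932 also fell on activation in WT by 0.70 (SE 0.189, adjusted p = 0.0197).

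Zfp738, in the chromosome 13 cluster that holds the regulators of sex-limited genes, was lower in KO at 0 h. Its KO arrays were at -6.26, -6.61 and -6.50 and its WT arrays at -5.80, -5.76 and -5.88, a difference of -0.64 ± 0.137 (adjusted p = 0.0437). At 3 h the difference was -0.21 and was not called (adjusted p = 0.582). Zfp583 was higher in KO at 0 h, at -4.94, -5.07 and -4.89 against -5.59, -5.66 and -5.72 in WT (0.69 ± 0.146, adjusted p = 0.0418). Zfp648 was higher in KO at 3 h, at -5.57, -5.39 and -5.09 against -6.03, -6.55 and -6.62 (1.05 ± 0.212, adjusted p = 0.0419), and lost the call without the 21-week arrays (0.92, adjusted p = 0.0842). Leaving out 1 array ended the call of Zfp583 for 10 of the 12 arrays, of Zfp738 for 9, of Zfp648 for 10 and of Zfp932 for 4 (adjusted p up to 0.199, 0.165, 0.195 and 0.0987). Under the other alternatives the call of Zfp583 held in 6 of 13 settings and that of Zfp738 in 7 of 12. Zfp648 kept it in 5 of 13 and Zfp932 in 9 of 13 (limma adjusted p of the 4 up to 0.376, 0.78, 0.469 and 0.151). Zfp738, Zfp583 and Zfp648 are dim probes, and the lowest signal well above background was -6.76 on the KO 0 h array from a 21-week mouse and -7.46 and -7.53 on the other KO 0 h arrays.

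Other values were larger but not called. Zfp459, in the same chromosome 13 cluster, was at -7.35, -7.78 and -8.18 at KO 3 h, not well above background on any, and at -6.25, -4.11 and -6.12 at WT 3 h, at least 2.11-fold lower in KO (adjusted p = 0.212). One WT array carried the highest value. Zfp629 stood at -2.29, -2.57 and -0.91 at KO 0 h and at -4.16, -3.87 and -3.88 at WT 0 h (2.05 ± 0.622, adjusted p = 0.1465), and Zfp768 at -2.30, -2.31 and -0.15 against -3.77, -3.23 and -3.84 (2.03 ± 0.869, adjusted p = 0.302), with the 21-week array highest in both. Without the 21-week arrays both were called, at 1.54 (adjusted p = 0.0034) and 1.31 (adjusted p = 0.0341). Called without the 21-week arrays at 0 h were 8 members in all (6.65% of all genes): Zfp932, Zfp738 and Zfp467 (-0.59) were lower and Zfp629, Zfp768, Zfp583, Zfp90 (0.68) and Zfp951 (0.53) higher. At 3 h (1.98% of all genes) the calls were Zfp932 and Zfp951 (0.60, adjusted p = 0.0295). Zfp831 and Zfp286 were at -0.98 and -0.96 at 3 h and at -0.13 and -0.29 without the 21-week arrays. Of these genes Zfp459, Zfp831 and Zfp286 were named by rule, and the others not named earlier were chosen after their values were seen. Macrophage markers were higher in KO in both states (10 of 12 called at 0 h and at 3 h, medians 2.11 and 2.38), as were 2 of 6 dendritic cell markers (medians 2.76 and 2.17). None of the plasma cell, neutrophil, erythroid, platelet, B cell or NK cell markers was called. The medians of KO minus WT at 0 h and 3 h were 4.07 and 2.94 for plasma cells, 3.16 and 1.57 for neutrophils, 2.96 and 1.63 for erythroid cells, 2.92 and 1.30 for platelets, 1.53 and 0.93 for B cells and 1.07 and 0.92 for NK cells. T cell markers were at -0.79 and -0.75 (0 called) and Treg markers at -1.45 and -1.06 (1 higher in KO at 3 h, the Foxp3 probe). The part of these cells in the values of members was not tested.

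**Figure D5:**
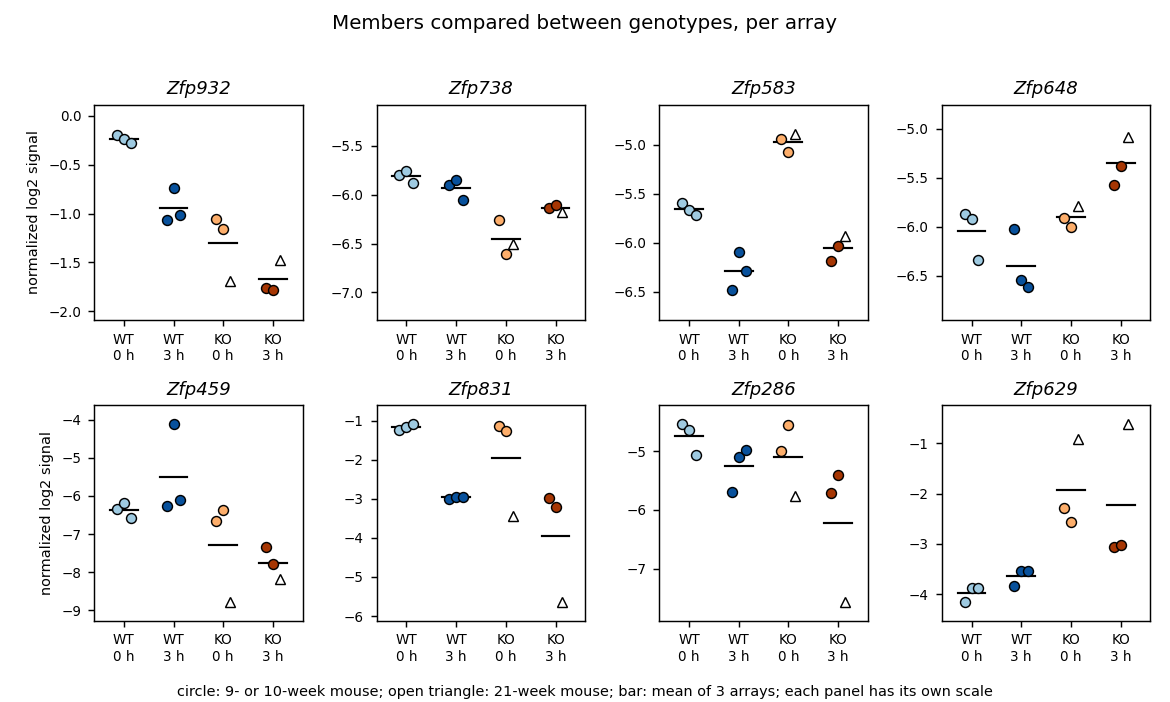
Normalized log2 signal of 8 members by group. Each point is 1 array, bars are means of 3 arrays, open triangles are the arrays from 21-week mice, and each panel has its own scale. Zfp932 stands lower in KO in both states, and for Zfp831, Zfp286 and Zfp629 the 21-week arrays lie apart from the other KO arrays.

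Members with a known role were grouped by it after values had been seen, so the counts are a description. Of 8 factors of pre-mRNA processing, ribosomes or the spindle, 5 rose in WT and 1 in KO and 0 fell, with medians of 0.69 and 0.54, while 13.3% and 7.38% of all genes rose, with medians of -0.14 and -0.04. Without the 21-week arrays 7 and 4 rose, beside 24.1% and 20.2% of all genes. They include Zfp326 and Zfp622, Zfp207, a spindle assembly protein (0.66 in WT, adjusted p = 0.0472), Zfp473, which acts in histone pre-mRNA processing (0.89, 0.0452), and Zfp830 (0.72, 0.0275). Zfp598, which marks collided ribosomes, was at 0.42 in WT and 0.38 in KO and was not called. Of 6 genes that silence retroviruses, repeats or imprinted genes, 1 fell in WT, Zfp932, and 0 were called in KO, beside 29.9% of all genes called in either direction in WT and 17.2% in KO. Zfp809, which recruits silencing to proviral DNA, was at 0.03 and 0.10, and Zfp445, which maintains imprints, at -0.03 and -0.01. Of 9 partners of corepressor complexes, 1 rose (Zfp703) and 2 fell (Zfp217 and Zfp652) in each genotype. None of 4 lymphocyte genes was called on activation or between genotypes over 12 arrays. Among them were Zfp318, needed for IgD expression in B cells (-0.31 and -0.11), and Zfp335, needed for T cell maturation, at 0.66 ± 0.258 in WT and 0.51 ± 0.258 in KO (adjusted p = 0.0805 and 0.198), which was called in both without the 21-week arrays (adjusted p = 0.000827 and 0.0073).

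The corepressor machinery through which KRAB proteins act was counted over 34 genes. In WT 6 rose and 5 fell on activation and in KO 1 rose and 3 fell, with medians of 0.08 and -0.04, beside 29.9% and 17.2% of all genes called. Without the 21-week arrays 14 rose and 7 fell in WT and 11 rose and 9 fell in KO, beside 55.8% and 46.2% of all genes. Between genotypes 0 of the 34 were called, beside 2.08% of all genes at 0 h and 1.44% at 3 h. The maintenance DNA methyltransferase Dnmt1 fell by 0.82 in WT and 0.91 in KO (adjusted p = 0.0073 and 0.0079), and the histone methyltransferase Ehmt2 by 0.64 and 0.48 (0.0074 and 0.0382). The heterochromatin protein Cbx3 fell by 0.76 in WT and 0.98 in KO (0.0382 and 0.0217), and the demethylase Kdm1a rose by 0.47 and 0.53 (0.0411 and 0.0388). Dnmt3a fell by 1.37 and Suv39h1 rose by 1.13 in WT (0.0066 and 0.0048), and in KO, where neither was called, they were at -0.50 and 0.57 (0.2629 and 0.1085). Of 38 genes named Zbtb, BTB zinc finger relatives, 7 rose and 7 fell in WT and 5 and 5 in KO, and without the 21-week arrays 15 and 11 in WT and 11 and 7 in KO. Among them was Zbtb7b, the factor of CD4 lineage choice, falling by 2.23 and 1.52. Of 16 Zscan and Zkscan genes, 2 rose and 3 fell in WT and 3 and 3 in KO, and without the 21-week arrays 3 and 6 in WT and 4 and 7 in KO, with Zkscan8 falling by 1.67 and 1.16 and Zscan18 rising by 1.27 and 0.91. Of 8 genes listed as a check of activation, 4 rose in WT (Nr4a1, Tnfrsf9, Nfkbid and Cd69) and these and Egr2 rose in KO. Nr4a1, an immediate early gene of T cell receptor signalling, rose by 3.21 and 3.24. Egr1, Myc and Il2 were called in neither genotype.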

How the data were processed

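RNA was labelled with Cy3 and hybridised to 12 one-colour Agilent arrays. The deposited scanner files hold the processed signal, an intensity that the authors' software had background-corrected, and a flag (score of 0 or 1) for probes well above background, made with Feature Extraction 10.7.3.1 per the file headers; the submitters' processing notes name version 11 and Partek. The deposited log2 table of the authors had a median of 3.89 on every array, with its scaling not given in the sources used here, and served as an alternative. Gene names and mm9 positions are those of the array design. Symbols and promoters were matched to RefSeq tables of GRCm38.p6, where 253 members matched by accession and 12 by symbol.

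From the intensity, log2 values were shifted by each array's 75th percentile over the 19799 probes above background on all arrays, the normalized log2 signal. Spots of a probe were averaged, control spots left out, and the brightest qualifying probe kept per gene. Limma 3.58.1 (R 4.3.3) fitted 4 group means with 8 residual degrees of freedom, giving 5 comparisons, with Benjamini-Hochberg adjustment over 18560 genes and a threshold of 0.05. SE is the standard error of a log2 difference, and arrays do not overlap where every value of a group lies beyond every value of the other. The number of arrays limits the precision. The procedure was tested on simulated data with independent noise on each array. Shared mice, slide effects and outlying arrays were not simulated, so that test says nothing about them.

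Genes were named by rule: up to 8 called rises and falls without overlap per comparison, and 3 values where none was called. The rule also took up to 5 for the difference of effects and up to 4 per list. Of the members called in both activation comparisons it took the top 12, ranked by the smaller of the WT and KO absolute differences. Other names lie outside this rule. They include the further members called in both activation comparisons, examples by probe, cluster or role, and names stated as chosen later. Members and lists were chosen with earlier results of these data known. Alternatives covered scaling, background, the dim-probe filter, probe choice, array weights, samples in the fit, the 21-week arrays and each array in turn. The input was 20 ng RNA for 1 sample at 0 h, whose genotype is not stated, and 40 ng otherwise.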

Additional observations from a re-analysis of the deposited data

How the results depend on the processing

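No call of a named member reversed under any alternative run. Of 39 named calls, 36 held with the 75th percentile over all probes, 35 with quantile normalization, 35 in the deposited log2 table, 32 with normexp, 22 with no shift between arrays, 28 with no filter on dim probes, 36 with tested probes averaged, 38 without the 21-week arrays, 39 with array weights and 18 with only the groups compared. The count of members called in KO activation, 36, was 17 with no shift, 15 with no dim-probe filter, 130 without the 21-week arrays, 0 with only the groups compared and 130 with array weights. The share of all genes called, 17.2%, was 13.3%, 5.55%, 46.2%, 0.56% and 43.7% in the same order. The count in WT activation, 72, was 20, 45, 144, 165 and 181 in these settings. Of all genes 29.9% were called in WT activation, and 15.2%, 12%, 55.8%, 60.7% and 66% in the same order. For KO minus WT at 0 h the count, 3, was 1, 0, 8, 0 and 20, and 1 with normexp. Of all genes 2.08% were called there, and 2.09%, 0.853%, 6.65%, 2.12%, 14.1% and, with normexp, 1.71% in these settings. For KO minus WT at 3 h the count, 1, was 0, 5, 2, 0 and 3, and 0 with quantile normalization, normexp and the deposited table. Of all genes 1.44% were called there, and 0.636%, 14.8%, 1.98%, 0% and 2.3% in the first 5 of these settings. With quantile normalization, normexp and the deposited table the share was 1.06%, 1.07% and 1.08%. Alternatives chosen after seeing the data were only the groups compared without the 21-week arrays, and an age of 21 weeks as a term. The former gave 38 in KO activation (21.1% of all genes), 5 at 0 h (4.61%) and 0 at 3 h (0.129%). The age term gave 104 in KO activation (38.5%), 130 in WT activation (50.2%), 5 at 0 h (4.14%) and 2 at 3 h (1.89%). With it 39 named calls held. Fewer genes or samples enter some of these fits. All groups share 1 estimate of spread, so the 21-week KO arrays enter the SE of WT activation too. Without them the WT differences were unchanged (median of members -0.08 in both fits). Their SE did change, from 0.525 to 0.122 for Zfp467 and from 0.285 to 0.278 for Zfp948. Beyond this the cause was not tested. Leaving out each array gave 14 to 89 in KO activation. In WT activation it gave 41 (without replicate 1 of WT 0 h or of WT 3 h) to 101. For KO minus WT at 0 h it gave 0 (without KO 0 h replicate 2 or any single WT 0 h array) to 6. It gave 0 to 2 at 3 h and 0 to 0 for the difference of effects. The counts of 89, 101 and 6 came without KO 3 h replicate 3, beside 37.2%, 41.2% and 5.99% of all genes. The 14 without replicate 2 of KO 0 h or of KO 3 h stood beside 9.73% and 9.88% of all genes, and the 41 beside 20.1% and 19.6%. The 0 at 0 h stood beside 0.97% without KO 0 h replicate 2. Without WT 0 h replicates 1, 2 and 3 in turn it stood beside 0.436%, 1.59% and 0.463%. At 3 h the 2 came without KO 0 h replicate 3, beside 1.55% of all genes, and the counts of 0 stood beside 0.749% to 1.27%. No paired analysis was possible because the labels give the mouse of no array and no replicate number; numbers here follow the order of deposit, and only the age of the KO mice links arrays across time. Signal limits the dim members: 27 of 265 were not well above background on every KO 3 h array.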
